A study of Mus musculus with 26 samples.

Results

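The Wnt signalling module comprised 43 genes of the Wnt pathway, and all 43 were found among the 45318 genes counted. They were listed by name and role, not by a cut-off on measured values, but with earlier results of these data known. They covered 10 ligands, 2 ligand secretion factors, 11 receptors and co-receptors, 5 secreted inhibitors, 4 receptor turnover genes, 7 cytoplasmic and destruction complex genes and 4 transcription factors of the TCF/LEF family. They were followed in polyA-selected RNA-seq of 4T1 cells, a mouse mammary carcinoma line of BALB/c strain labelled as mammary tumor tissue, grown in DMEM with FBS. The 2 control libraries were labelled wild type and, per the study's methods, came from cells given a sgRNA against Renilla luciferase. The study describes control cells too as single-cell clones, selected for MaTAR25 levels similar to the parental cells. The labels do not say whether the 2 control libraries came from 1 clone. The 3 KO1 and 4 KO2 libraries were labelled MaTAR25-/- and came from clones in which paired sgRNAs removed the transcription start site of MaTAR25, a nuclear lncRNA annotated as 1200007C13Rik. Each of KO1 and KO2 is a single clone grown from 1 sorted cell, so a difference between clones and a difference between knockout and control cells can only partly be told apart. The study asked which genes change when MaTAR25 is lost and which chromatin regions the RNA contacts. The second question was addressed by ChIRP-seq, in which biotin-labelled antisense oligonucleotides retrieve an RNA with the chromatin bound to it, in 4T1 cells and in NDL mammary tumor cells of strain FVB. The sample labels call the NDL cells primary and give their genotype as MMTV-PyMT, whereas the study's text names them MMTV-Neu-NDL, a HER2/neu model, and the difference could not be settled here.

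Wnt ligands are lipid-modified in the secreting cell by Porcn, carried to the surface by Wls, and bound there by Frizzled receptors together with Lrp5 or Lrp6. Dishevelled proteins then block the Axin, Apc and Gsk3b destruction complex, so that beta-catenin accumulates and joins TCF/LEF factors on its target genes, among them the feedback genes Axin2, Nkd1, Lgr5, Rnf43, Znrf3, Lef1, Tcf7 and Dkk1. In the mammary gland the pathway is known for its part in ductal development and stem cell maintenance, and for driving mammary tumors in mice when a ligand is overexpressed.

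Between 25367211 and 61110585 reads per library were counted in genes. For MaTAR25 itself 35 and 30 reads were counted in control cells, at most 7 in a KO1 library and at most 11 in a KO2 library, so all 7 knockout libraries lay below both controls. Among 6 epithelial markers Epcam, Cdh1, Krt8 and Krt18 had at least 2459 counts in every library, Krt14 had 44 to 624 and Krt5 was at 0. Cdh1, the epithelial cadherin, fell in knockout against control cells (-0.65, SE 0.21, adjusted p = 0.068) and in KO2 (-0.85, SE 0.18, adjusted p = 0.010), with no overlap between knockout and control libraries, while Krt8 rose in KO1 (1.32, SE 0.34, adjusted p = 0.023) and Krt8 and Krt14 were higher in KO1 than in KO2. The summed level of the 6 was 2814 to 2972 CPM (counts per library scaled to a common total) in control cells, 2340 to 3845 in KO1 and 1411 to 2867 in KO2. Of 7 fibroblast markers Dcn, Lum and Thy1 were at 0 in every library, Pdgfrb had at most 1 count and Pdgfra had 278 to 2297. The collagen gene Col1a1 fell from 182 and 87 counts in control cells to 2 to 44 in knockout cells (-3.00, SE 0.64, adjusted p = 0.013) and was called lower in each clone, and Col1a2, at most 52 counts, was called higher in KO1. The 7 summed to 20.3 to 25.9 CPM in control cells, 21.6 to 40.6 in KO1 and 11.8 to 47.6 in KO2. Of 6 immune markers Adgre1 was at 0, Ptprc had at most 40 counts and was called lower in KO1 than in KO2, and Cd68, with 42 to 856 counts, was called higher in KO1; they summed to 8.15 to 9.68 CPM, 14.3 to 29.3 and 4.91 to 28.9. Of 4 endothelial markers Cdh5, at most 33 counts, was called higher in KO2 than in control cells and in KO1, and the 4 summed to at most 1.69 CPM. The part of these markers in the values of the Wnt genes was not tested. In bulk RNA, fewer cells expressing a gene and less RNA of it per cell cannot be told apart. The labels do not say that libraries of a group came from separate cultures, so p-values describe the spread between these libraries only.

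Testing of 15023 genes with sufficient counts by edgeR's quasi-likelihood method at an adjusted p below 0.1 left 32 members tested. The other 11 members had at most 5 counts in any library: Wnt4, Wnt6, Fzd8, Ror2, Dkk1, Dkk2, Dkk3, Sfrp2, Lgr5, Axin2 and Nkd1. Among these silent or nearly silent members were the universal feedback gene Axin2, with 4 and 1 counts in control cells, 0 in all of KO1 and 4, 0, 0 and 3 in KO2, as well as Nkd1, Dkk1 and Fzd8, which were at 0 in all 9 libraries. Of the 8 feedback genes 4 were therefore untested, and of the 4 tested only Lef1 passed the test. Lgr5, a receptor for R-spondin, had at most 2 counts in any library.

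In knockout against control cells (7 against 2 libraries) Sfrp1 was higher and Wnt9a, Fzd4, Lrp6, Dvl1 and Lef1 were lower. These 6 are 18.8% of the 32 members tested, beside 22.6% of all genes tested. Across all genes tested 11.9% were called higher and 10.7% lower. Members higher in knockout cells than in control cells numbered 11 of 32 by sign, beside 7986 of 15023 genes, and the median log2 fold change was -0.16 beside 0.06 over all genes tested. A member share near the share of all genes is no result about the module, and the description below concerns its individual genes. Of the tested members, the knockout libraries lay entirely below both controls for 8 and entirely above for 1, Sfrp1, while 34.4% of all genes tested had non-overlapping groups. All 6 called members were among these 9, and the other 3 were Fzd6, Lgr4 and Tcf7l1. None of the 6 calls remained when either control library was left out, and those fits rest on a lone control. Leaving out KO2 replicate 1 or KO2 replicate 4 left 4 calls each, and the share of all genes called in those fits is not given here. The plot of levels by library shows the 6 called members and 6 that differed between clones or libraries.

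**Figure D1:**
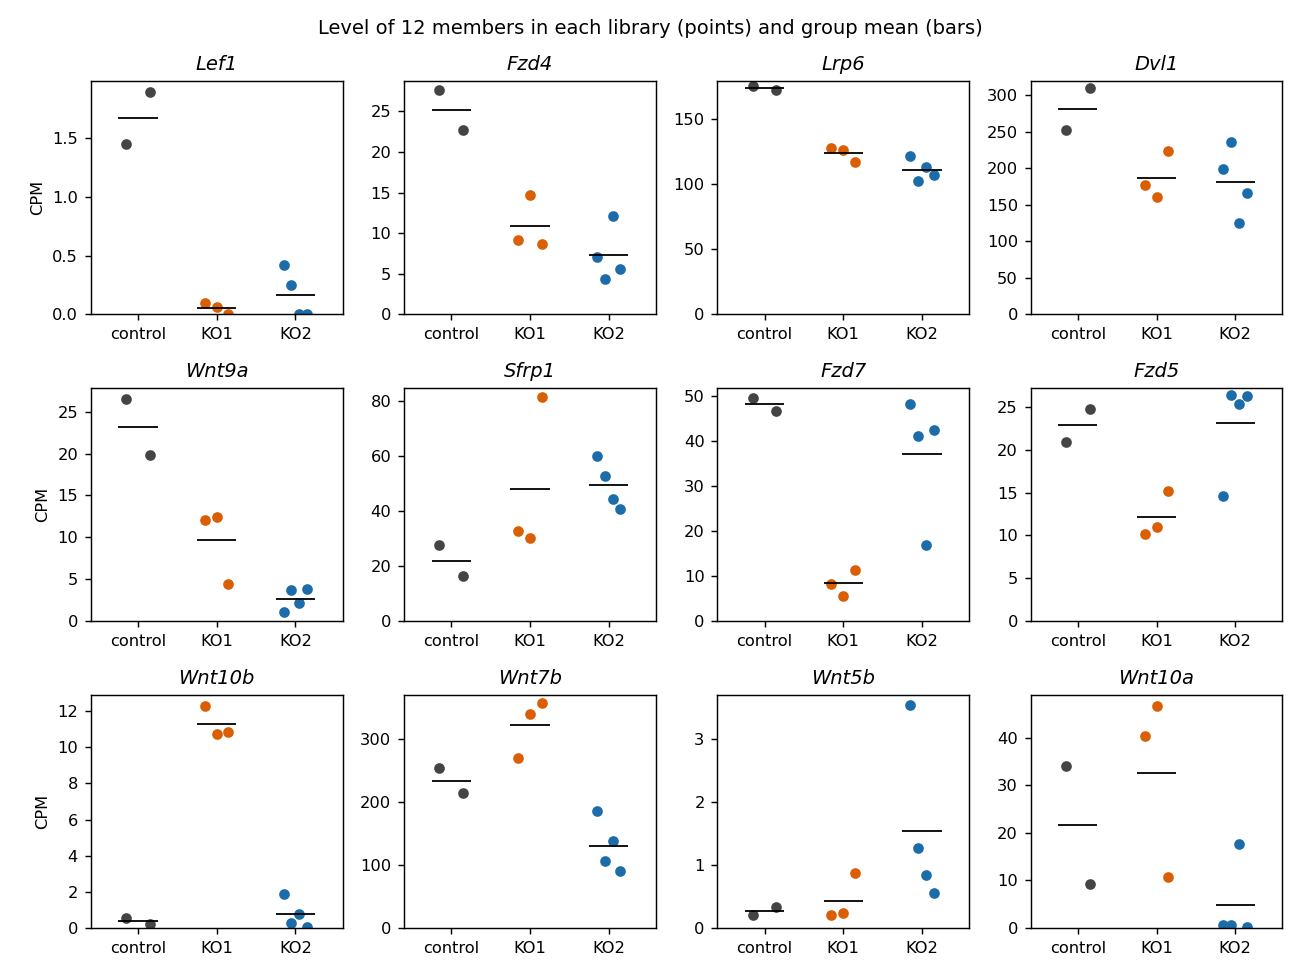
Level in CPM (counts scaled to a common library total, y axis, starting at 0) of 12 members in each library (points: 2 control, 3 KO1, 4 KO2) with the group mean (bars). Lef1, Fzd4, Lrp6, Dvl1 and Wnt9a lie below both controls in all 7 knockout libraries and Sfrp1 lies above, while Wnt10b is high in KO1 alone and Fzd7 is low in all KO1 libraries and in 1 KO2 library.

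Among the ligands, 8 of 10 were tested and Wnt9a, a ligand that can use the beta-catenin route, passed the test in knockout against control cells. Wnt9a had 26.6 and 19.8 CPM in control cells, 12.1, 12.5 and 4.41 CPM in KO1 and 1.09, 3.71, 2.10 and 3.82 CPM in KO2. No knockout library reached either control and the KO2 libraries all lay below the KO1 libraries. The fitted log2 fold change was -2.03 (SE 0.70, adjusted p = 0.080), and that call was lost without either control library, KO1 replicate 3 or KO2 replicates 2, 3 or 4. Against control cells Wnt9a did not pass in KO1 (-1.26, SE 0.55, adjusted p = 0.13) and passed in KO2 (-3.12, SE 0.52, adjusted p = 0.0042), and the clones differed from each other by 1.85 (SE 0.48, adjusted p = 0.038), a difference lost without KO1 replicate 1 or KO1 replicate 2.

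Wnt7b and Wnt7a supplied most of the ligand RNA in all libraries. Per kb of exon, Wnt7b accounted for 51.1% and 56.3% of the summed CPM of the 10 ligands in the control libraries, 51.9% to 68.3% in KO1 and 35.6% to 57.8% in KO2, and Wnt7a for 26.9% and 30.8%, 16.8% to 25.6% and 37.8% to 61%. The 2 genes thus made up the larger part of the ligand total in each library. Wnt7b had 254 and 214 CPM in control cells, 269.9, 341 and 358 CPM in KO1 and 186, 107, 138 and 89.9 CPM in KO2, so that KO1 lay above control cells and KO2 below them. The log2 fold change in KO2 was -0.85 (SE 0.26, adjusted p = 0.043), that in KO1 was 0.46 and did not pass (SE 0.28, adjusted p = 0.27), and the difference between clones, 1.31, did (SE 0.23, adjusted p = 0.012). Wnt7a fitted at -0.07 in knockout against control cells (SE 0.28, adjusted p = 0.89). The ligand total was 102 and 77.5 CPM per kb in control cells, 106 to 115 in KO1 and 34.7 to 65.7 in KO2, with no overlap between the clones.

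Wnt10b, a ligand that causes mammary tumors when overexpressed in mice, was close to silent in control cells at 0.549 and 0.244 CPM. It had 12.3, 10.8 and 10.8 CPM in KO1 and 1.87, 0.295, 0.769 and 0.0409 CPM in KO2. All KO1 libraries stood apart from every other library, with a log2 fold change of 4.80 against control cells (SE 1.20, adjusted p = 0.020) and of 3.92 against KO2 (SE 0.85, adjusted p = 0.022), and KO2 did not pass against control cells (0.88, SE 1.00, adjusted p = 0.55). Wnt5b, a ligand of the beta-catenin-independent branch, rose in KO2 (2.54, SE 0.93, adjusted p = 0.079) from 0.198 and 0.336 CPM in control cells to 3.54, 1.26, 0.837 and 0.552 CPM, whereas KO1 had 0.207, 0.232 and 0.866 CPM.

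Wnt10a was unequal within groups. It had 34.1 and 9.21 CPM in control cells, 40.4, 46.8 and 10.7 CPM in KO1 and 0.586, 0.674, 17.7 and 0.164 CPM in KO2, so 3 KO2 libraries were below 1 CPM and the fourth was not, and no comparison passed. Wnt5a stayed at 0 to 24 counts per library; it had 24, 19 and 0 counts in KO1 and 0, 1, 1 and 0 in KO2, which gave a called clone difference of 4.35 (SE 1.46, adjusted p = 0.083) on a gene with 1 KO1 library at 0. Wnt11 had 0 to 39 counts and did not pass in any comparison. Of the secretion factors, Wls had 151 and 240.4 CPM in control cells, 108 to 136 CPM in KO1 and 66.8 to 157 CPM in KO2 (-0.67, SE 0.28, adjusted p = 0.14), and Porcn had 3.12 and 3.14 CPM, 6.25 to 10.2 CPM and 1.43 to 8.77 CPM (0.93, SE 0.65, adjusted p = 0.36), so neither passed.

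**Figure D2:**
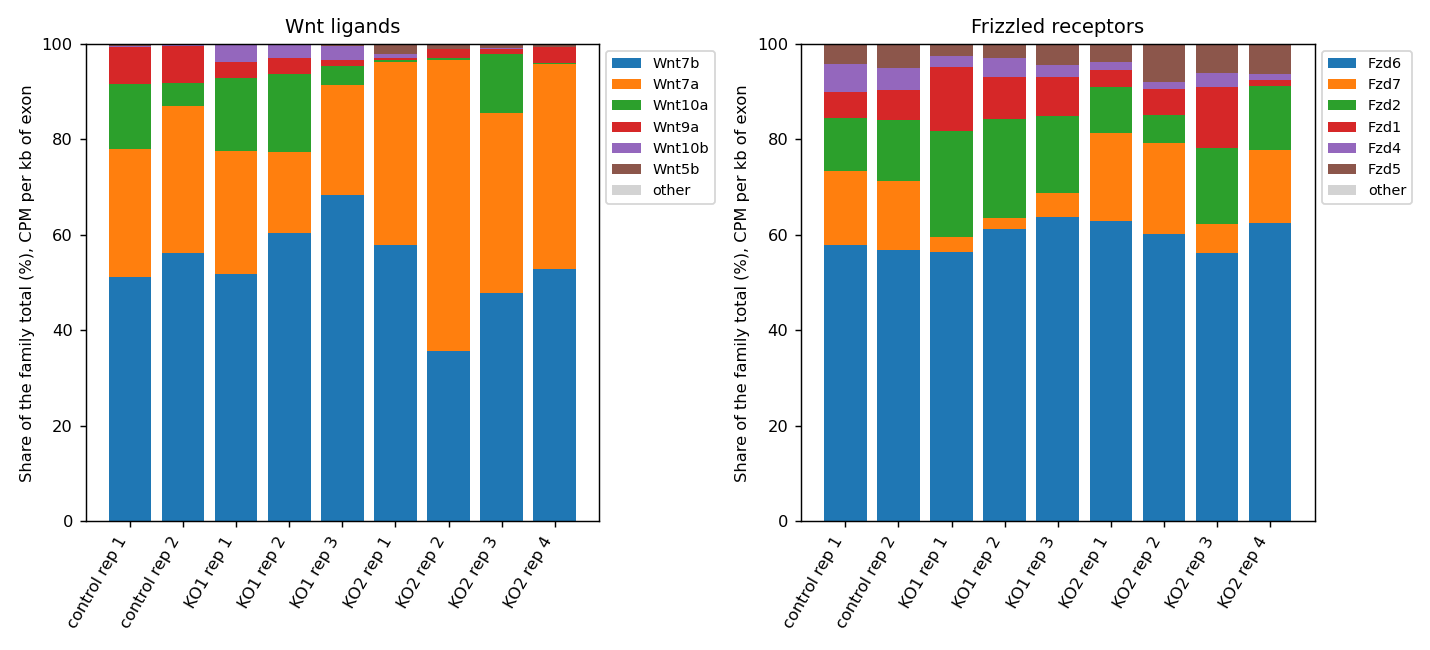
Share of the family total (y axis, percent of CPM per kb of exon) of each Wnt ligand (left) and Frizzled receptor (right) in the 9 libraries (x axis). Wnt7b and Wnt7a fill most of the ligand bar in every library, Wnt9a shrinks in the knockout libraries, and Fzd7 takes 14.4% and 15.4% in control cells but 2.25% to 4.9% in KO1.

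The receptors were tested for 9 of 11 members, and 2 fell in knockout against control cells, both also in each clone. Fzd4, a Frizzled receptor that binds Wnt ligands and norrin, had 27.6 and 22.7 CPM in control cells, 9.13, 14.7 and 8.63 CPM in KO1 and 7.08, 4.34, 12.1 and 5.58 CPM in KO2. All 7 knockout libraries were at or under 14.7 CPM and both controls were above 22, so the groups did not overlap. The log2 fold change was -1.51 (SE 0.38, adjusted p = 0.026), with -1.22 in KO1 (SE 0.42, adjusted p = 0.064) and -1.78 in KO2 (SE 0.39, adjusted p = 0.012), and the clones did not differ beyond their spread (0.57, SE 0.35, adjusted p = 0.32). Its KO1 call was lost without KO1 replicate 1 or KO1 replicate 3.

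Lrp6, the co-receptor that is phosphorylated when a ligand is bound, was the member with the smallest adjusted p in knockout against control cells. It had 175 and 172 CPM in control cells, 127, 126 and 117 CPM in KO1 and 122, 102, 113 and 107 CPM in KO2, with little spread inside any group. Knockout libraries ran from 102 to 127 CPM, all below the controls, and the log2 fold change of -0.58 (SE 0.13, adjusted p = 0.016) corresponds to 0.670 of the control level. Its paralogue Lrp5 moved the other way in KO2, with 213 and 210.1 CPM in control cells, 211, 256 and 232 CPM in KO1 and 383, 316, 222 and 391 CPM in KO2. The increase passed in KO2 (0.63, SE 0.22, adjusted p = 0.067) and not in KO1 (0.14, SE 0.23, adjusted p = 0.69), and the difference between the clones did not pass (-0.49, SE 0.19, adjusted p = 0.12). Per kb of exon, Lrp6 held 37% and 36.9% of the co-receptor total in control cells, 26% to 30% in KO1 and 16.4% to 26.6% in KO2.

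Fzd7, a Frizzled linked to mammary stem cells, separated the clones. It had 49.7 and 46.9 CPM in control cells, 8.24, 5.54 and 11.3 CPM in KO1 and 48.3, 41.3, 17.0 and 42.5 CPM in KO2. KO1 lay below every other library, and among the KO2 libraries replicate 3 lay between KO1 and the rest. The log2 fold change was -2.53 in KO1 (SE 0.42, adjusted p = 0.0037), -0.37 in KO2 (SE 0.39, adjusted p = 0.51) and -2.15 between clones (SE 0.37, adjusted p = 0.011). Fzd5, a close Frizzled relative of Fzd8, also was lower in KO1 (10.1, 11 and 15.2 CPM) than in control cells (20.9 and 24.8 CPM), at -0.91 (SE 0.30, adjusted p = 0.052), while KO2 had 14.6, 26.4, 25.4 and 26.2 CPM. The clone difference for Fzd5 was -0.93 (SE 0.26, adjusted p = 0.046), with KO2 replicate 1 within the range of KO1. Of the Fzd5 exon bases, 1233 of 6915 are shared with Gm38058 on the opposite strand, and the library kit does not mark strand, so reads from the shared part cannot be assigned.

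Fzd6, which can repress the beta-catenin branch, was the most abundant Frizzled with 56.2% to 63.8% of the Frizzled total per kb in every library. It had 199 and 196 CPM in control cells and 139 to 185 CPM in the knockout libraries, without overlap. The difference did not pass (-0.28, SE 0.13, adjusted p = 0.18). Its exact permutation p was 0.0278 (two-sided), the smallest that 2 against 7 libraries allow. Each member called in knockout against control cells had the same permutation p. Fzd1, Fzd2 and the Wnt receptor tyrosine kinase relative Ryk did not pass in any of the 4 comparisons; Ryk had 137 to 139 CPM in control cells and 77.5 to 176 CPM in knockout cells, and Fzd1 ranged from 2.84 to 33.0 CPM inside KO2.

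Among the secreted inhibitors, Sfrp1, a Frizzled-related protein that sequesters Wnt ligands, was the only member tested and the only one to rise in knockout against control cells. Sfrp1 had 27.5 and 16.3 CPM in control cells, 32.8, 30.1 and 81.4 CPM in KO1 and 59.9, 52.6, 44.4 and 40.6 CPM in KO2. Each knockout library was above both controls and KO1 replicate 3 was the highest. The log2 fold change was 1.16 (SE 0.39, adjusted p = 0.075), with 1.13 in KO1 (SE 0.43, adjusted p = 0.089) and 1.17 in KO2 (SE 0.42, adjusted p = 0.073). Without KO1 replicate 3 the KO1 value was 0.52 and did not pass.

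Of the receptor turnover genes, which limit or sustain the Frizzled and Lrp receptors at the surface, 3 of 4 were tested and none passed in knockout against control cells. Lgr4, an R-spondin receptor, passed in KO2 alone (-0.56, SE 0.22, adjusted p = 0.090), with 19.4 and 19.4 CPM in control cells, 18.6, 15.2 and 13.4 CPM in KO1 and 11.5, 14.4, 14.9 and 11.7 CPM in KO2. The ubiquitin ligase Rnf43, a feedback gene, had 5.31 and 5.37 CPM in control cells, 10.5, 9.29 and 11.6 CPM in KO1 and 4.52, 5.60, 3.28 and 9.85 CPM in KO2 and did not pass (0.55, SE 0.48, adjusted p = 0.47). Its relative Znrf3 had 27.0 to 37.0 CPM in all 9 libraries.

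Dishevelled was the cytoplasmic group with a called member. Dvl1, one of 3 Dishevelled proteins that relay the Frizzled signal, had 252 and 310.5 CPM in control cells, 177, 161 and 224 CPM in KO1 and 199, 237, 125 and 167 CPM in KO2. The highest knockout library, KO2 replicate 2, stayed below the lower control, and the log2 fold change was -0.61 (SE 0.22, adjusted p = 0.086). The call lay close to the threshold and was lost without either control library, KO1 replicate 1, KO1 replicate 2, KO2 replicate 1 or KO2 replicate 4. Dvl2 and Dvl3 did not pass in any comparison, and Dvl1 held 55.3% to 77.6% of the Dishevelled total per kb. Axin1, the scaffold of the destruction complex, had 129 and 131 CPM in control cells and 87.9 to 158 CPM in knockout cells (-0.18, SE 0.19, adjusted p = 0.55), and Apc, its partner, 127 and 121 CPM against 116 to 191 CPM (0.23, SE 0.18, adjusted p = 0.42).

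Lef1, the TCF/LEF family member that is itself a Wnt target, showed the largest decrease of the members in knockout against control cells and did so from a low level. It had 66 and 62 counts in control cells, 6, 2 and 0 counts in KO1 and 15, 6, 0 and 0 counts in KO2. No knockout library exceeded 0.418 CPM, beside 1.45 and 1.89 CPM in the controls, and 3 knockout libraries were at 0. The log2 fold change was -3.85 (SE 1.09, adjusted p = 0.039), with -4.77 in KO1 (SE 1.35, adjusted p = 0.032) and -3.40 in KO2 (SE 1.13, adjusted p = 0.057). Its share of the TCF/LEF total per kb was 1.85% and 3.09% in control cells and at most 0.962% in knockout cells. Of its exon bases 1208 of 8788 are shared with Gm43352 on the opposite strand.

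The other TCF/LEF factors carried nearly all of that family's RNA. Tcf7l1, which mostly represses targets, had 16.9 and 16.1 CPM in control cells, 9.51, 12.9 and 6.79 CPM in KO1 and 7.61, 2.82, 9.77 and 11.8 CPM in KO2; the groups did not overlap, and the value did not pass (-0.92, SE 0.43, adjusted p = 0.17). Tcf7l2 had 15.2 and 15.3 CPM beside 10.4 to 17.6 CPM (-0.17, SE 0.24, adjusted p = 0.67), and Tcf7 had 7.05 and 2.35 CPM beside 1.60 to 6.04 CPM (-0.48, SE 0.50, adjusted p = 0.55). The adjusted p-values of Tcf7l1, Tcf7l2 and Tcf7 do not show that their levels were equal.

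Taken clone by clone, both sharing the same 2 control libraries, KO1 had 7 of 32 members called, 2 higher and 5 lower (21.9%, beside 31.6% of all genes tested, 15.9% higher and 15.7% lower). KO2 had 10 called, 3 higher and 7 lower (31.2%, beside 31.4% of all genes, 16.5% higher and 15.0% lower). Called with the same direction in each clone were Sfrp1 (higher) and Fzd4, Lrp6 and Lef1 (lower). Another 3 members passed in KO1 only (Wnt10b, Fzd5, Fzd7), 6 in KO2 only (Wnt5b, Wnt7b, Wnt9a, Lrp5, Lgr4, Dvl1), and 19 in neither. The same split over all genes tested is not given here, so calls in both clones are no result about the module. Compared directly, 6 of 32 members differed between the clones, 4 higher in KO1 (Wnt5a, Wnt7b, Wnt9a, Wnt10b) and 2 lower (Fzd5, Fzd7), or 18.8% beside 19.6% of all genes, of which 9.43% were higher and 10.2% lower. The 4 higher members were all ligands and the 2 lower ones Frizzled receptors. Without KO2 replicate 3, which stood apart for Wnt10a and Fzd7, the count rose to 11, and KO1 against control then called 11 as well, as it did without KO2 replicate 2. Without KO1 replicate 1 or KO1 replicate 2 the clone count fell to 3. Calls over all genes tested also shifted with the library left out, and their share is not given beside these counts. These counts and those that follow therefore describe single genes and not the module. Most calls of the clones against control were lost when either control library was left out, and those fits rest on a lone control. In KO2 against control Wnt7b, Wnt9a, Fzd4, Lrp6 and Lef1 were the 5 called without KO2 replicate 1. The share of all genes called in that fit is not given here.

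**Figure D3:**
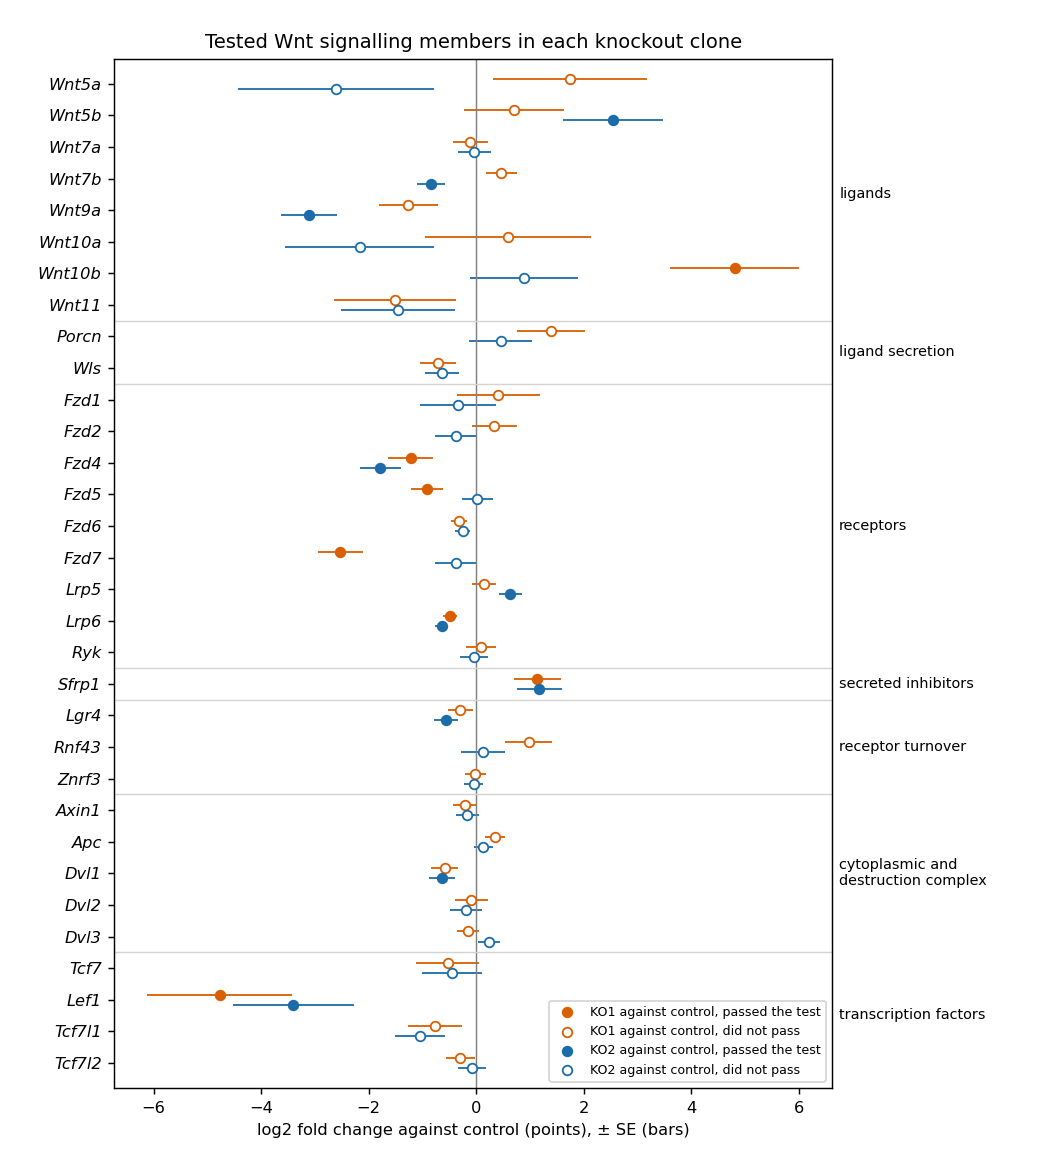
Log2 fold change against control cells (x axis) with its SE (bars) of the 32 tested members in KO1 (orange) and KO2 (blue), grouped by role; filled points passed the test at an adjusted p below 0.1. Sfrp1, Fzd4, Lrp6 and Lef1 are filled on the same side of 0 for both clones, Fzd7 and Wnt10b for KO1 alone and Wnt9a for KO2 alone.

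The other Wnt pathway genes, a list of 96 of which 68 were tested, included 24 called in knockout against control cells, 8 higher and 16 lower (35.3%, beside 22.6% of all genes tested, of which 11.9% were higher and 10.7% lower). Their median log2 fold change was -0.23, beside 0.06 over all genes tested. The 8 with the smallest adjusted p were called in the same direction in both clones. Gsk3b, the kinase that marks beta-catenin for destruction, had 170 and 196 CPM in control cells and 93.6 to 114 CPM in knockout cells, a log2 fold change of -0.84 (SE 0.13, adjusted p = 0.0036). Ctnnb1, which encodes beta-catenin, had 588 and 591 CPM in control cells and 791 to 1436 CPM in knockout cells, a change of 0.99 (SE 0.21, adjusted p = 0.013). The ranges of both genes were separate between groups.

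Daam1, a formin of the planar cell polarity branch, fell by 1.13 (adjusted p = 0.0089), Celsr2, a cadherin of the same branch, by 1.26 (adjusted p = 0.026), and Tle2, a co-repressor bound by TCF/LEF factors, by 1.27 (adjusted p = 0.019). Trabd2b, a protease that inactivates Wnt ligands, was 20.4 and 16.8 CPM in control cells and 0.406 to 4.18 CPM in knockout cells (-3.20, adjusted p = 0.013). Aes, a short Groucho relative, rose by 0.72 (adjusted p = 0.013), and Apcdd1, a membrane inhibitor of Wnt signalling, by 2.10 (adjusted p = 0.026), from 3.34 and 3.81 CPM to 5.94 to 28 CPM. Thus genes coding for inhibitors of the pathway were found on both sides, higher (Sfrp1, Apcdd1) and lower (Trabd2b). In KO1 27 of the 68 were called, 10 higher and 17 lower (39.7%, beside 31.6% of all genes tested). In KO2 28 were called, 10 higher and 18 lower (41.2%, beside 31.4%), and between the clones 16 (23.5%, beside 19.6%). No test of the list against other genes was made.

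The ChIRP-seq peak lists placed at least 1 peak nearest to the promoter of 39 of the 43 members, and 28 members had one in all 4 lists. Peaks were called by the authors with HOMER on pooled samples, and the score is HOMER's, so no spread between replicates can be given. With the total oligonucleotide pool in 4T1 cells 37 members had a peak, with the odd pool 34, with the even pool 30 and with the total pool in NDL cells 35. Among tested members the shares were 84.4%, 75.0%, 71.9% and 81.2%, beside 59.6%, 52.4%, 52.9% and 58.0% of all genes tested. These shares were not adjusted for gene length or for the distance to neighbouring genes. The lists do not bear on all members alike, because the even list held 0 peaks on chromosome 3, where Wls, Dkk2, Sfrp2 and Lef1 lie. Wnt6, Wnt10b, Dvl3 and Tcf7 had no peak in any list. All 6 members called in knockout against control cells had a peak in at least 1 list. So did 23 of the 26 tested and not called, and 10 of the 11 untested. For Wnt9a (score 20.1) and Dvl1 (score 61.5) that was the NDL list alone, with no peak in any 4T1 list. The share of all genes with a peak in at least 1 list is not given here.

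**Figure D4:**
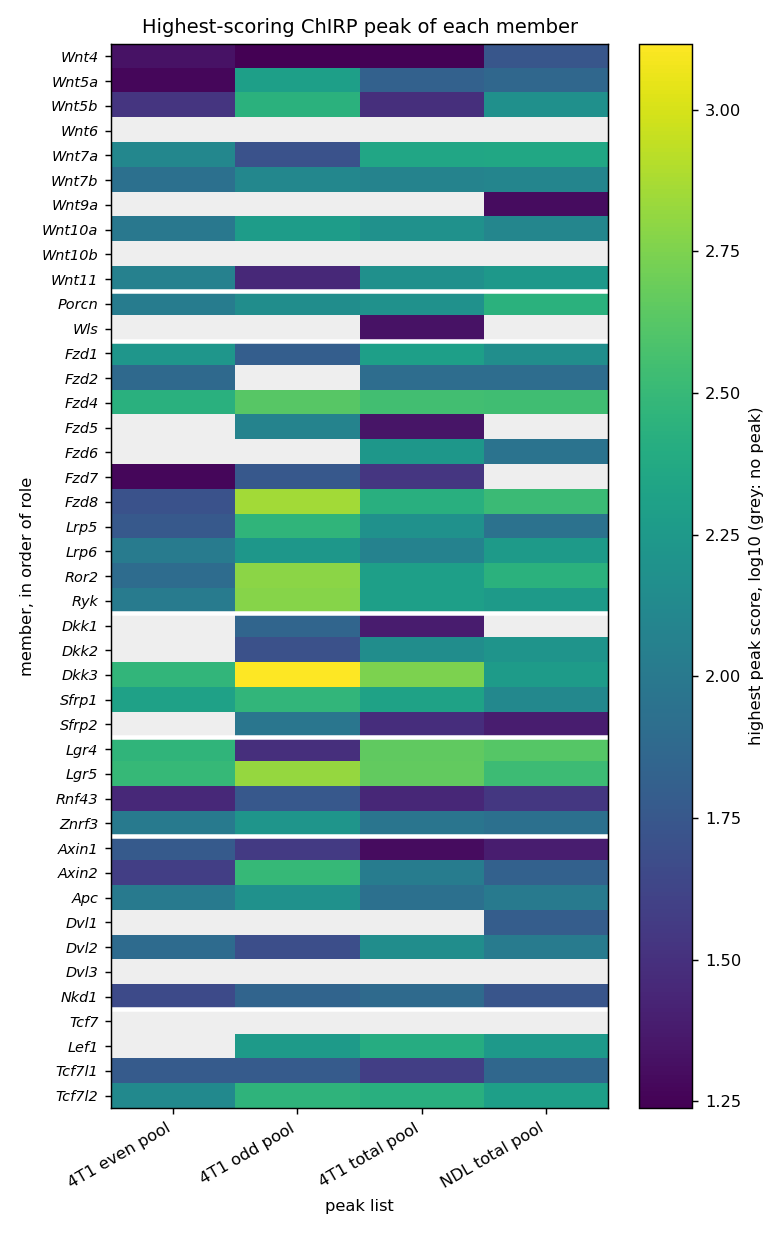
Highest HOMER peak score, on a log10 colour scale, of each member (rows, in order of role) in the 4 ChIRP peak lists (columns); grey means no peak with that member as nearest promoter. Dkk3, Lgr5 and Fzd8, at or near 0 counts in RNA, score high in the odd list, and Fzd4 scores above 270 in all 4.

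High scores were not confined to expressed members. Dkk3, a Dickkopf family protein with at most 2 counts in any RNA library, had the highest member peak, score 1305.2 and rank 370 in the odd list. Fzd4, called lower in both clones, had 1 peak in each list, at 351.2 with the total pool, 426.0 with the odd pool, 270.4 with the even pool and 348.1 in NDL cells, beside list medians of 38.2 to 42.9. The Fzd4 peak lay in an exon 3136 bases from the start site, at chr7:89407179-89407803 of mm10 with the total pool.

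The sequence below the peaks was compared with the 14 capture oligonucleotides. All 14 were searched in every list, although the odd and even pools each held only some of them. The chromosome that carries Apc and Fzd8 was left out of this search, for peaks and genome windows alike. Peaks of Apc and Fzd8 were therefore not examined for runs. A run in an odd-list or even-list peak may therefore match an oligonucleotide absent from that pool. A run was at least 12 bases identical to an oligonucleotide, on either strand. Of the member peaks searched, 25% held a run in the total list, 29.4% in the odd list, 25.3% in the even list and 26.7% in the NDL list. Of all peaks searched in the same lists, 24.2%, 23.7%, 19.8% and 23.6% held one. So did 1.14% of the genome windows searched, each of 500 bases, the median peak length of the total list. The member shares lay slightly above those of all peaks searched in each list, a difference that was not tested. Among the members searched, such runs occurred at 26 and were at a median distance of 68.5 bases from the peak centre. The longest was 15 bases at Dkk3 (oligo4), followed by 14 bases at Fzd4 (oligo4), Wnt5a (oligo5), Sfrp1 (oligo13) and Tcf7l2 (oligo3), and by 13 bases at Axin2, Dkk2, Fzd1, Fzd2, Lrp6, Ror2, Ryk, Tcf7l1 and Wnt5b. Of these members Dkk3, Ryk, Fzd4 and Ror2 had the highest-scoring peaks over such a run in the odd list and are shown for that reason, a choice made after their values were seen; the Ryk and Ror2 runs matched oligo5. The windows of 30 bases around these 4 runs are shown on the plus strand of GRCm38 with the identical run in capitals, beside the oligonucleotides (5′ to 3′); the Fzd4 and Ror2 runs match the reverse complement of the oligonucleotide.

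MaTAR25-oligo4: caggtggtggagatggaatg
MaTAR25-oligo5: gaaaggaaacacccaggtca
Fzd4, chr7:89407431-89407460: ctctgcttCATCTCCACCACCTtcaccgtg
Dkk3, chr7:112142665-112142694: tattcctGTGGTGGAGATGGAActtaggcc
Ryk, chr9:102940129-102940158: gcaggaaaGAAACACCCAGGTttgcaagag
Ror2, chr13:53257222-53257251: actaggacCCTGGGTGTTTCCcacatgaca

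The Ryk peak over this run scored 590.3 in the odd list and 79.0 in the even list, and the Ror2 peak 410.2 and 79.8, while the Fzd4 peak scored 426.0 and 270.4 and the Dkk3 peak 1305.2 and 299.9. These 4 were chosen by their odd-pool scores, so their order between the pools is a description only. Whether a shared run accounts for a peak was not tested.

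Peaks overlapped a RefSeq promoter window (250 bases before to 50 after the start site) of 3 of the 28 members with such a window here. These were Dvl2 in all 4 lists, Wnt5b in the odd and NDL lists, and Ryk in the odd list. The Dvl2 peaks ended at chr11:70000348 (even) to chr11:70000433 (NDL). They covered only the upstream part of its window and none reached the start site. The set of RefSeq promoters used here (GRCm38.p6) held 28 members, 37 windows in all. The other members, among them Lrp6 and Sfrp1, had no window in it and were not examined. Forms of the TCF/LEF motif, namely CTTTGAA or CTTTGAT or CTTTGTA or CTTTGTT, were searched on both strands; 16.2% of the member windows held a match beside 16.9% of all 32851 promoters, so the members were near the background. The 6 members with a match were Dkk1, Fzd7, Lef1, Tcf7l2, Wnt11 and Wnt5b, and the feedback gene Axin2 had none in this window. Shown are Dvl2, for its peak in every list, and Wnt5b, for a peak and a match in the same window. Dkk1 is shown for its 2 matches with no RNA counts. The other Wnt5b windows, at chr6:119467162-119467461 and chr6:119544298-119544597, held 0 matches and no peak. Each sequence is printed 5′ to 3′ along the gene's strand with matches in capitals.

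Dvl2, chr11:70000342-70000641, plus strand: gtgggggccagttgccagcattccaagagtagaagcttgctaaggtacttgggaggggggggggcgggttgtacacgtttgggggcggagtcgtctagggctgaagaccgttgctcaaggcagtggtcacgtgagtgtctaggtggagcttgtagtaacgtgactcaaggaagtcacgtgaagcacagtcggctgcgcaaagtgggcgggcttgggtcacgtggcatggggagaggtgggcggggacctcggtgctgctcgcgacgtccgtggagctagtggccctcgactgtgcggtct
Wnt5b, chr6:119449337-119449636, minus strand: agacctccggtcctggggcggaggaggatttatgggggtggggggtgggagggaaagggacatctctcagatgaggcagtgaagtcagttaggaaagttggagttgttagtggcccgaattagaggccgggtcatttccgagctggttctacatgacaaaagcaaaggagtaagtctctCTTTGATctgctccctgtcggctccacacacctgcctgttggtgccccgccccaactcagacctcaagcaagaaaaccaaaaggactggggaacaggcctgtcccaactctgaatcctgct
Dkk1, chr19:30549447-30549746, minus strand: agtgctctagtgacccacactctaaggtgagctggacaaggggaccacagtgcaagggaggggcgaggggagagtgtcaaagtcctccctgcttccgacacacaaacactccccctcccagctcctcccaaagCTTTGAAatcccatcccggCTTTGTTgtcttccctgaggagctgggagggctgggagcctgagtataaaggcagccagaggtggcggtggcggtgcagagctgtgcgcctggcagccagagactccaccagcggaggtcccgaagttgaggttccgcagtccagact

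Dvl2, with peaks over the upstream part of its promoter window, differed by -0.15 between knockout and control cells (SE 0.27, adjusted p = 0.75). Wnt5b differed by 2.0 (SE 1.08, adjusted p = 0.24), with the KO2 increase given above. Of the Dvl2 exon bases 1151 of 6298 are shared with Acadvl on the opposite strand, so reads from that part cannot be assigned. Another 8 members (Axin2, Dvl1, Fzd6, Sfrp2, Tcf7l1, Wnt5a, Wnt7b and Wnt11) share 36 to 364 exon bases with a gene on the opposite strand. A match in these letters is a description of the sequence and does not show binding.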

How the data were processed

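RNA-seq covered 9 libraries (2 control, 3 KO1, 4 KO2). Per the study's methods, the authors mapped single-end reads to GRCm38 with STAR and deposited raw read counts per GENCODE vM5 gene from HTSeq; strand settings are not given in the sources used here. Reads outside genes, 33.917% to 36.995% of each library, were left out. KO2 replicate 2 lists each gene 3 times with equal values, used once. The ChIRP-seq files, deposited by the authors as peak lists called with HOMER on pooled samples after Bowtie2 mapping, hold a peak score per region, with a minimum enrichment of 50-fold over the Ppib pulldown; input and Ppib samples were not analysed here.

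edgeR 4.0.16 in R 4.3.3 (TMM, filterByExpr, quasi-likelihood test, Benjamini-Hochberg, threshold 0.1) was fitted on all genes: KO against control in a 2-group design, clones in a 3-group design. The SE is the log2 fold change divided by the square root of F. CPM used TMM library sizes; CPM per kb used GENCODE vM21 exon lengths. For single genes an exact permutation test over the 36 splits used log2(CPM + 1). A member had a peak where a peak's nearest promoter was its own. The script was tested on simulated data. All 43 members were named by rule, and of other pathway genes the 8 called with the smallest adjusted p. Members and gene lists were chosen with earlier results of these data known. Alternatives were DESeq2 1.42.0, RLE scaling, other count filters, a replicate block, other groupings, leaving out each library, a threshold of 0.05, and stricter peak sets. Counts of 25367211 to 61110585 per library set the depth; members at a few counts are given as counts.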

Additional observations from a re-analysis of the deposited data

Results flagged for a closer look

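In KO2, the only group with 4 libraries, 3 of 32 members had 1 library far from the others on the log2 scale by Dixon's criterion, which flags about 1 in 20 groups by chance. Wnt10a had 17.7 CPM in KO2 replicate 3 and 0.164 to 0.674 CPM in the other KO2 libraries. Fzd7 had 17.0 CPM in the same library and 41.3 to 48.3 CPM in the others. Fzd5 had 14.6 CPM in KO2 replicate 1 and 25.4 to 26.4 CPM in the others. The cause was not tested.

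The effect against control cells differed between the clones for 6 of 32 members, by edgeR's direct contrast of KO1 with KO2. The log2 differences were 4.35 for Wnt5a, 1.31 for Wnt7b, 1.85 for Wnt9a, 3.92 for Wnt10b, -0.93 for Fzd5 and -2.15 for Fzd7. With 1 clone each, clone and genotype effects on these genes cannot be told apart.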

How the results depend on the processing

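Of 808 values of single members under alternatives, 687 kept direction and side of the threshold, 93 lost the call, 4 gained it and 24 changed sign, none of these 24 a called value. The 4 gained calls do not count every clone fit, as the rise from 7 to 16 members in KO1 against control, given below, shows. In KO against control, 6 members were called (3392 genes), with 5 to 8 under RLE scaling, both count filters, DESeq2 and the 3-group fit, 3 at a threshold of 0.05 (2235 genes) and 0 to 6 with 1 library left out (462 and 574 genes without control replicate 1 and 2). In KO1 against control 7 became 16 with only those 2 groups fitted (7752 genes), 4 at a threshold of 0.05 and 1 to 11 with 1 library left out. In KO2 against control 10 became 6 with only 2 groups, 4 at a threshold of 0.05 and 2 to 11 with 1 library left out. Between the clones 6 became 3 to 11 with 1 library left out, and genes called fell from 2944 to 1932 with only 2 groups, 1643 at a threshold of 0.05 and 874 without KO1 replicate 2. The cause of these shifts was not tested; a lone control is assumed to vary like the other groups.

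Replicate numbers did not pair the samples: deviations of the 7 same-numbered pairs correlated at -0.196 to 0.0558 and of 19 other pairs at -0.154 to 0.159. With a replicate block 2 members were called in KO against control (1898 genes), 6 in KO1, 5 in KO2 and 6 between the clones (1747 genes), and the log2 values of Wnt7a, Wnt10a and Dvl3 changed sign to 0.0855, 0.18 and -0.0942.

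Ryk changed sign without a filter (-0.0048) and with at least 10 counts per library (-0.0053), and Wnt5a in the 3-group fit (-0.43). Leaving out 1 library, the log2 value ran from -0.45 to 5.69 for Wnt5a, -0.21 to 0.0462 for Wnt7a, -0.31 to 0.0057 for Wnt7b, -1.02 to 0.88 for Wnt10a, -0.19 to 0.22 for Fzd1, -0.16 to 0.12 for Fzd2, -0.0608 to 0.11 for Ryk, -0.0945 to 0.0397 for Znrf3, -0.0090 to 0.15 for Dvl3 and -1.06 to 0.53 for Tcf7.

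Members with a ChIRP peak numbered 14 (even), 20 (odd), 22 (total) and 21 (NDL) at a score of at least 100, and 0, 1, 1 and 0 among the 1000 highest-scoring peaks of each list. Peaks within the gene body gave 22, 24, 28 and 28. The shares of all genes for these peak sets are not given here, so the counts cannot be set beside a background. Members under 5 counts are beyond the depth of these libraries.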
